A study of Sus scrofa with 5 samples.

Results

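Myeloid cells of the piglet cecum were compared between the library of d14 and that of d7. The cells were chosen by counts of UMIs, the molecular tags that let each captured RNA molecule be counted once. A cell had to have at least 200 detected genes and at least 3 UMIs in all of FCN1, CD14, CSF1R, C1QA, C1QB and C1QC, with at least 2 of these 6 genes detected. It also had to have no UMI of the T cell genes CD3E and CD3G and none of the epithelial gene EPCAM. This rule found 3267 of the 26449 cells with at least 200 genes in both libraries, 911 of 10272 at d7 and 2356 of 16177 at d14. Over the 5 libraries of the series (d0, d1, d7, d14 and d21) it found 4071 of 72701 cells.

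Monocytes are made in the bone marrow, travel in blood and enter the gut wall, where they can become macrophages. Blood monocytes carry ficolin-1 (FCN1), the lipopolysaccharide co-receptor CD14 and the calprotectin subunits S100A8 and S100A9, while macrophages settled in tissue make complement C1q, scavenger receptors, lysosomal enzymes and MHC class II molecules. In the intestine these cells engulf bacteria and dying cells, present antigen and release cytokines.

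All libraries came from the ceca of male Large White piglets, labelled only by age, and every age mixed cells from 5 piglets. The piglets of the study were born to 3 sows and were kept on maternal milk alone, with no other treatment, and cells were freed from the cecal mucosa with EDTA and trypsin. With a single library per age there is no replicate and hence no test, and the effect of age cannot be told apart from that of the library. Which piglet a cell came from is not given in the sources used here, so a difference could come from any of the 5 piglets of an age.

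The myeloid cells of d7 carried 3576095 counts in all and those of d14 carried 15181886, with median UMI counts of 2397 and 5922 and median gene counts of 1009 and 1954 per cell. The other cells of the same libraries had medians of 2331 and 3923 UMIs, so the gap in depth was wider among the myeloid cells. The median share of mitochondrially encoded counts in the myeloid cells was 5.58% at d7 and 4.18% at d14. No myeloid barcode of d7 was also a myeloid barcode of d14, although 37 barcodes of kept cells occurred in both libraries. At d7, 116 of the chosen cells sat just inside the limit with 3 UMIs of the 6 genes, with a median of 1148 UMIs per cell, and 668 cells sat just outside with 1 or 2 UMIs. At d14 there were 161 such cells inside and 2086 outside, with median UMI counts of 3270 and 3915. A further 123 cells at d7 and 258 at d14 had at least 3 UMIs but of 1 gene only. Left out for a UMI of CD3E or CD3G were 148 cells at d7 and 596 at d14 that met the limits of the 6 genes. For a UMI of EPCAM, 57 and 75 such cells were left out. All cells left out in these ways count among the other cells here and below, which can therefore include myeloid cells.

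The share of myeloid cells was 0.585% of kept cells at d0, 2.63% at d1, 8.87% at d7 (exact Clopper-Pearson 95% interval 8.33 to 9.44), 14.6% at d14 (14.0 to 15.1) and 2.03% at d21. The d14 share was 1.64 times that of d7 (95% interval 1.52 to 1.77). The intervals of shares, counts and folds given here cover counting error only, not the spread between piglets or between dissociations. With every cell thinned to 1000 UMIs, before the rule was applied, the ratio was 1.81, and with a stricter rule of at least 5 UMIs and 3 of the genes it was 2.57. C1QA, C1QB and C1QC alone could meet this stricter rule, whereas a cell without them needed all of FCN1, CD14 and CSF1R. The larger ratio therefore depends on the C1q counts of each library and is no separate check of the share. The main rule could also be met by 2 of the C1q genes alone, so the ratios of 1.64 and 1.81 depend on C1q counts as well.

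The 6 genes of the rule describe who the chosen cells were, and their levels, like the C1q classes built on 3 of them, are given as a description. C1QA, the A chain of complement C1q, was at a level of 86.3, 116, 3.21, 28.3 and 3.81 counts per 10000 over the 5 ages in order, and FCN1 was at 3.98, 3.81, 16.6, 7.52 and 13.2. The C1q gene was thus high at d0, d1 and d14 and low at d7 and d21, the reverse order of FCN1. CSF1R, the receptor that keeps macrophages alive, stayed between 5.91 and 8.02 at all ages. Per cell, 774 of the 911 myeloid cells of d7 (85.0%) had no UMI of C1QA, C1QB or C1QC and 113 (12.4%) had at least 2. At d14, 863 of 2356 cells (36.6%) had none, 389 (16.5%) had 1 and 1104 (46.9%) had at least 2.

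At matched depth, with each cell thinned to 1000 UMIs, 12.1% of the myeloid cells of d7 and 45.4% of those of d14 had at least 1 C1q UMI, with 128 and 87 shallower cells left out. The cells had been chosen at full depth, by a rule that itself counts C1q UMIs, before they were thinned. Without thinning the shares were 15.04% and 63.4%. Free RNA gives such UMIs to cells that do not express a gene. Of cells with CD3 UMIs and no UMI of FCN1, CD14 or CSF1R, also thinned, 0.295% at d7 and 7.28% at d14 had a C1q UMI. Since the mixture of cells with and without C1q UMIs differed between the libraries, the main folds below are given for all myeloid cells and also within cells with at least 2 C1q UMIs and within cells with none. These classes were cut from the data and are ranges of 1 measure, not cell types. They were cut at full depth, where cells with no C1q UMI had medians of 2234.5 UMIs at d7 and 5465 at d14. Depth and free RNA can thus shift cells between the classes, and their part in the folds was not tested. The class with at least 2 C1q UMIs has no upper limit and was not matched between the ages. In it the summed level of 8 macrophage markers was 56.4 at d7 and 172 at d14. Of these markers 4 are genes of the rule, among them C1QA, C1QB and C1QC, by which the classes were cut. In cells with none, where these C1q genes are 0 by the cut, the sum was 9.28 and 13.7. The part of these differences in the folds within the classes was not tested.

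**Figure D1:**
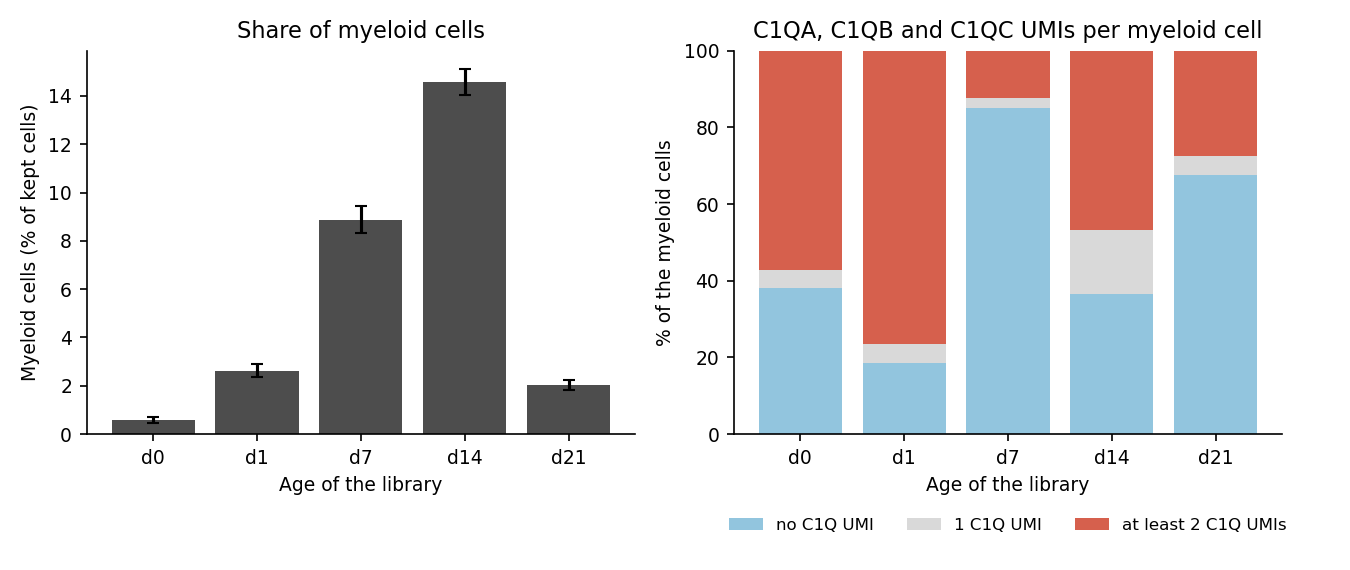
Left, share of myeloid cells among kept cells (%) in each library, with exact 95% intervals for counting error. Right, the myeloid cells of each library by their number of UMIs of C1QA, C1QB and C1QC together (% of myeloid cells); cells with none made up 85.0% at d7 and 36.6% at d14.

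Gene levels are summed counts of all myeloid cells of a library, divided by their total and multiplied by 10000, and a fold is the ratio of the levels at d14 and d7. A gene was compared where its level was at least 0.2 in 1 or both libraries, and was called higher or lower where the levels differed at least 2-fold. For the fold, a count of 0 was set to a chosen floor of 3 counts, so the size of such a fold depends on this floor. Of 5583 genes compared, 239 (4.28%) were higher at d14 and 229 (4.1%) were lower. The median log2 fold was 0.13, and 72.2% of the genes lay within 0.5 of no difference on the log2 scale. Of the rule's own genes, C1QA, C1QB and C1QC are among the 239 and FCN1 and CD14 among the 229.

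In cells with at least 2 C1q UMIs, 367 of 5853 genes (6.27%) were higher and 154 (2.63%) lower at d14. In cells with no C1q UMI the numbers were 154 of 5389 genes (2.86%) and 209 (3.88%). Of the 239 genes, 231 could be compared in the first class, and 152 of them were higher there too. Of 185 that could be compared in the second class, 135 were, and 90 of 183 were past 2-fold in both. Of the 229 lower genes, 92 of 181 were lower in cells with at least 2 C1q UMIs, 171 of 225 in cells with none, and 71 of 177 in both. For 24 genes of the lower set and 22 of the higher set neither class passed 2-fold on its own.

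**Figure D2:**
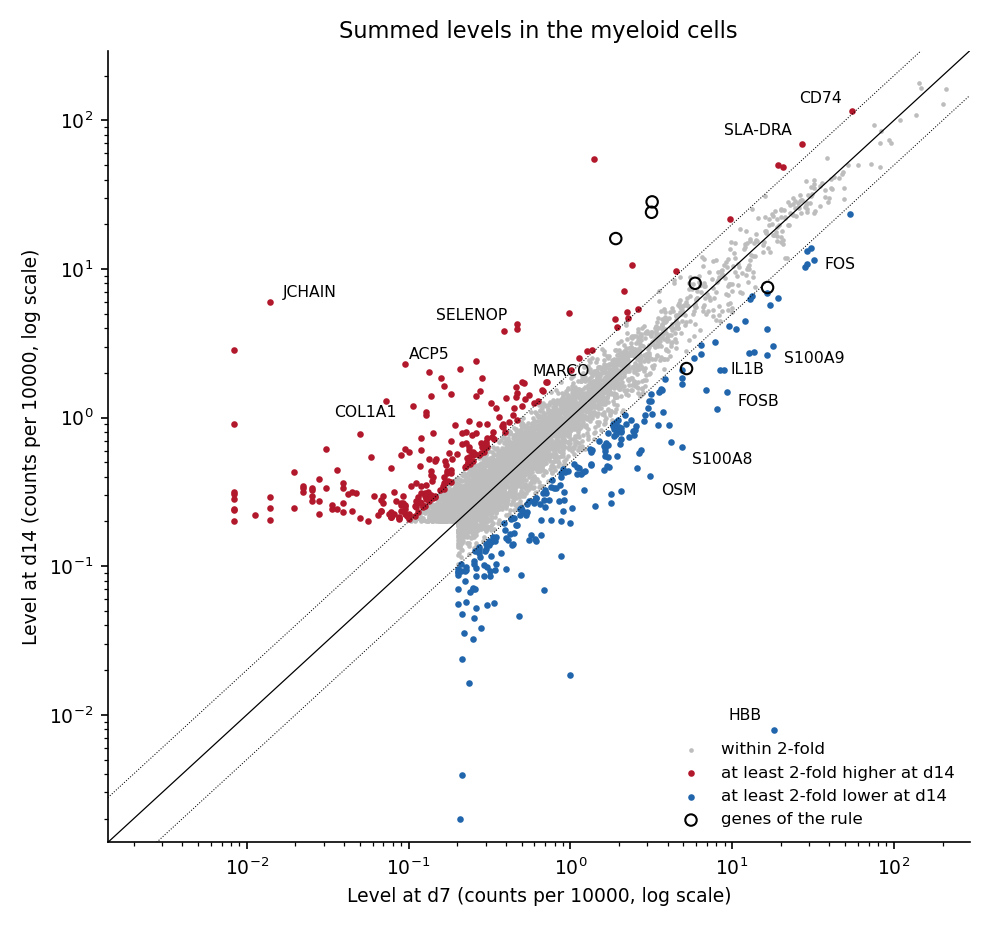
Level of each compared gene in the myeloid cells at d7 (x axis) and d14 (y axis), in counts per 10000 on log scales, with counts of 0 drawn at the floor of 3 counts. The dotted lines mark 2-fold, 239 genes lie above and 229 below, and circles mark the genes of the rule.

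For 134 of the 239 higher genes, the level at d14 was higher in the other cells than in the myeloid cells. For the 229 lower genes this held for 34 at d7. Of all 5583 compared genes, 2677 were higher in the myeloid cells than in the other cells of the library in which they stood higher. So were 105 of the 239, near the share over all genes, and 195 of the 229. Among genes at a level of at least 1, JCHAIN and LOC396781 had the largest folds. JCHAIN is the joining chain of antibodies made by plasma cells. It was 432-fold higher (185 to 1332), with 5 counts at d7 and 9180 at d14, of which 16.1% were in 1 cell and 58.6% in 5 cells. LOC396781, with 0 counts at d7 set to the floor of 3 counts, was 338-fold higher, and LOC100152327 was 39.4-fold higher. The 5 top cells held 90.6% and 61.6% of their counts at d14. Collagen genes and smooth muscle genes followed, with COL1A1 11.3-fold, COL1A2 11.6-fold, ACTA2 24.2-fold and TAGLN 10.2-fold higher. SPON2, IGFBP7 and HTRA1, secreted proteins, were 17.8-fold, 9.28-fold and 8.55-fold higher and likewise more abundant in the other cells of d14. In cells with at least 2 C1q UMIs, however, SPON2 stood above the other cells at d14. It was 18.6-fold higher there, with 8 counts at d7 and 1556 at d14. COL1A1 was also 10.5-fold higher at d14 in the other cells, at 4.76 counts per 10000 against 1.2 in the myeloid cells.

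Summed over whole marker lists, the 9 fibroblast genes went from 3.53 to 19.6 counts per 10000 in the myeloid cells and from 5.52 to 73.4 in the other cells, with all 9 higher at d14. The 8 genes of pericytes or smooth muscle went from 0.473 to 6.04, again with 8 of 8 higher, and the 7 plasma cell genes from 0.858 to 7.85, with 6 of 7 higher and TNFRSF17 at 0 at d7. The 5 erythroid genes went the other way, from 18.5 to 0.0079, with 0 of 5 higher and HBM, ALAS2, AHSP and SLC4A1 at 0 at d14, and the 9 epithelial genes from 2.84 to 0.391, with 1 of 9 higher. In the other cells the same sums went from 49.3 to 0.376 and from 89.9 to 14.5. The 7 measured T cell genes stayed at 0.274 and 0.275, with CD3D at 0 at d7, but the rule itself left out cells with CD3E or CD3G UMIs. The 9 NK or cytotoxic genes, which the rule does not bar, went from 7.49 to 9.06, with 7 of 9 higher. In the other cells these 9 genes went from 54.8 to 74.5. The fibroblast, pericyte, plasma cell, NK or cytotoxic, erythroid and epithelial sums thus differed in the myeloid cells in the direction in which they differed in the other cells. Endothelial and mast cell sums were also higher at d14 in both. The B cell sum went opposite ways, from 1.79 to 2.07 in the myeloid cells, with 1 of 6 genes higher, and from 2.71 to 0.777 in the other cells. So did the 5 glia genes, from 0.0308 to 0.0336 and from 0.359 to 0.288. The part of all these cell types in the results below was not tested.

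Of the lower genes, HBB, the beta chain of haemoglobin, had the largest fold, 2289 (1309 to 4431). It stood at 18.1 at d7 and 0.0079 at d14, 90.7% of its d7 count was in 5 cells, and its level in the other cells was 47.9 and 0.361. LGALS3 (galectin-3) was 5.65-fold lower and likewise higher in the other cells, at 19.9 and 1.76. The other genes with the largest folds in this direction, namely OSM, S100A8, IER3, LOC110261048, RETN, G0S2, FOSB, KLF4, S100A9, CITED4, PLK3, DUSP2 and NFKBIA, were all higher at d7 in the myeloid cells than in the other cells. RETN, the gene of resistin, was 6.43-fold lower in all myeloid cells and 3.73-fold lower in cells with no C1q UMI, while in cells with at least 2 it had 1 count at d7 and 44 at d14.

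The most abundant genes differed little. The thymosins TMSB10 and TMSB4X, which bind actin, were at 210 and 162 and at 146 and 165 counts per 10000 at d7 and d14, and FTH1, the ferritin heavy chain that stores iron, at 143 and 178. RPL10, TPT1 and the mitochondrial genes COX1, COX2, COX3 and ATP6 were all within 2-fold, and of the 10 highest genes CD74, described further on, was the only one past it.

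Calprotectin and granule proteins, which arm monocytes and neutrophils against microbes, had 9 of 13 compared genes lower at d14 and 0 higher, with a median log2 fold of -1.84. In cells with at least 2 C1q UMIs 1 of 9 was lower and 1 higher, with a median of -0.22. In cells with none 8 of 14 were lower and 0 higher, with a median of -1.43. The median in the other cells was 0.03. S100A9 was at 0.506, 7.94, 18.0, 3.04 and 6.84 counts per 10000, in the order d0, d1, d7, d14, d21 kept from here on. It was highest at d7, and the d14 level lay below those of d1 and d21. S100A8, its partner in calprotectin, was at 0.506, 1.71, 4.89, 0.632 and 1.68, and S100A12, a further protein of the family, at 0.411, 4.51, 6.89, 1.52 and 3.77.

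The d14 levels were 5.91-fold (5.69 to 6.14) lower for S100A9, 7.73-fold (7.14 to 8.38) for S100A8 and 4.52-fold (4.27 to 4.79) for S100A12. All 3 genes lie within one stretch of chromosome 4 of Sscrofa11.1, S100A8 at 4:96209670-96210603, S100A12 at 4:96225691-96227030 and S100A9 at 4:96236114-96238989. Of cells thinned to 1000 UMIs, 38.1% at d7 (34.6 to 41.6) and 12.3% at d14 (11.0 to 13.7) had a UMI of S100A9, against 0.59% and 0.593% of CD3 cells. Without thinning the shares were 49.5% and 21.4%.

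The difference was larger in the cells without C1q. There, S100A9 was 3.8-fold, S100A8 5.2-fold and S100A12 3.09-fold lower at d14, whereas in cells with at least 2 C1q UMIs they were 1.16-fold, 1.1-fold and 1.06-fold lower. G0S2, an inhibitor of lipolysis that is abundant in monocytes and neutrophils, had the same shape, 6.23-fold lower in all, 4.51-fold in cells without C1q and 1.14-fold in cells with it. LYZ, lysozyme, was 1.86-fold lower in all cells and not past 2-fold in either class. For 2 of the 9 genes a few cells carried the count. LTF (lactoferrin) was found in 9 cells at d7, of which 5 held 92.1% of its counts, and 1 cell held 68.2% of the counts of MMP9 (gelatinase B).

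Neutrophils carry several of the same genes. The summed level of the 7 neutrophil markers measured was 3.49 at d7 and 1.7 at d14 in the myeloid cells, with 0 of 7 higher at d14 and none at 0. It was 10.8 at d1. CXCR2, a chemokine receptor of neutrophils, was 3.83-fold lower at d14. The part of neutrophils in these results was not tested.

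**Figure D3:**
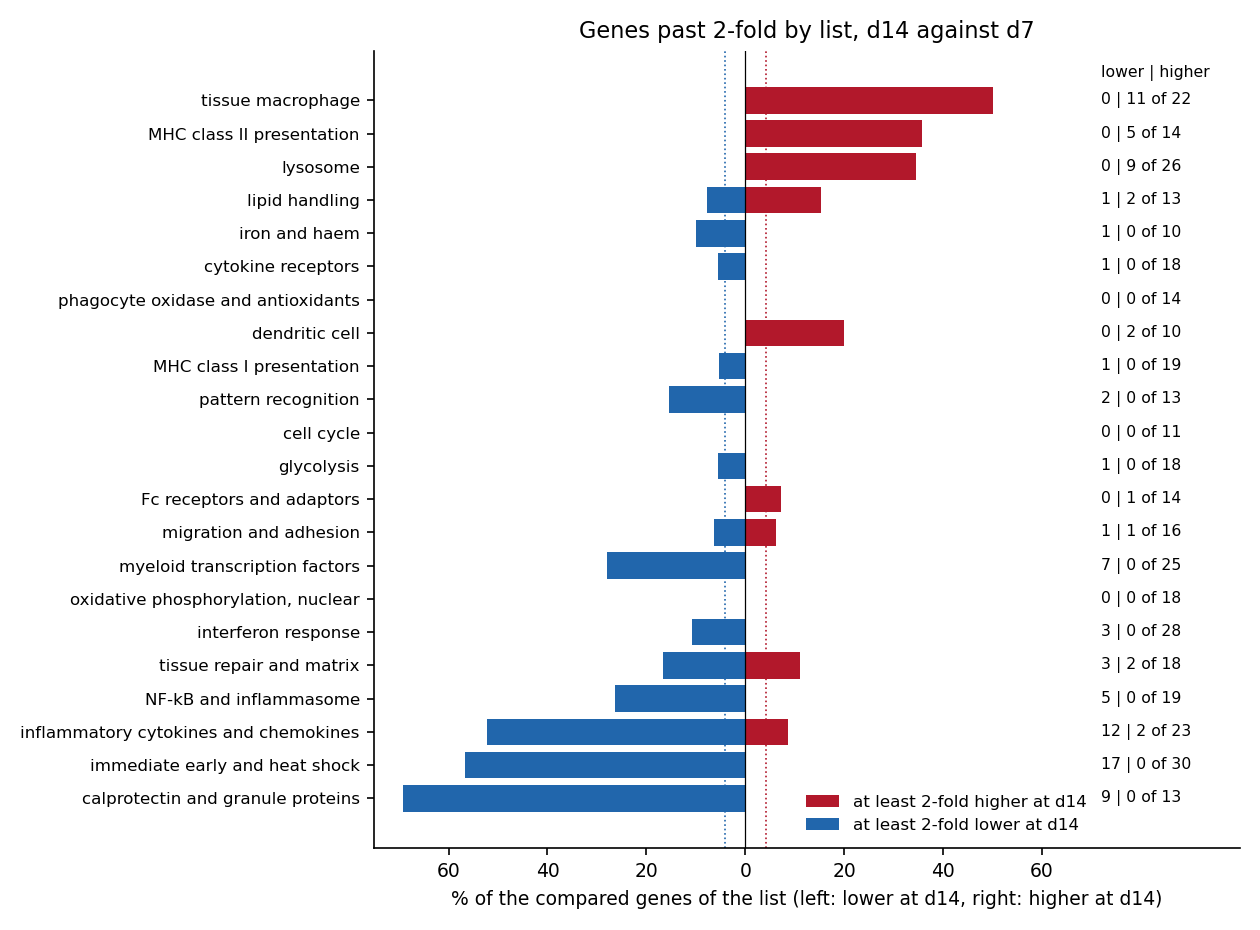
Share of the compared genes of each list (%) that were at least 2-fold lower (left) or higher (right) at d14, with the numbers at the right. Dotted lines mark the shares over all 5583 compared genes, 4.1% and 4.28%; 9 of 13 calprotectin and granule genes were lower and 11 of 22 tissue macrophage genes higher.

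Inflammatory cytokines and chemokines had 12 of 23 compared genes lower at d14 and 2 higher, with a median log2 fold of -1.12. In cells with at least 2 C1q UMIs 5 of 20 were lower and 2 higher, with a median of -0.35. In cells with none 12 of 23 were lower and 2 higher, with a median of -1.05. The median in the other cells was 0.08. IL1B, the cytokine made by activated monocytes through the inflammasome, was at 2.81, 5.85, 8.38, 2.11 and 2.84 counts per 10000 over the ages and was 3.98-fold (3.78 to 4.18) lower at d14 than at d7. It was lower in both classes, 1.99-fold in cells with at least 2 C1q UMIs and 2.7-fold in cells with none. Of thinned cells, 31.4% at d7 (28.2 to 34.8) and 12.03% at d14 (10.7 to 13.4) had a UMI of IL1B, and 0.56% and 0.234% of CD3 cells did. The unthinned shares of myeloid cells were 44.0% and 23.9%.

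OSM, oncostatin M, a cytokine of the IL-6 family that acts on stromal cells, was at 1.23, 0.472, 3.12, 0.403 and 0.807 across the ages and was 7.74-fold (7.01 to 8.56) lower at d14. It was 3.91-fold lower in the class with C1q and 5.28-fold lower in the class without. IL1A, which lies near IL1B on chromosome 3, was 2.87-fold lower, TNF 2.44-fold, PTGS2 (the inducible cyclooxygenase) 3.5-fold, CCL4 5.97-fold and CSF1 4.37-fold. CXCL8 and CXCL2, which draw neutrophils, were 2.17-fold and 2.79-fold lower. CXCL2 was lower only in the class without C1q, at 2.27-fold, and its fold of d14 over d7 in the class with C1q was 1.04. CXCL11 was 7.71-fold lower with 82% of its d7 count in 1 cell.

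CXCL14, a chemokine of fibroblasts and epithelium, and PTGES, a prostaglandin synthase, were the 2 genes of this list that were higher. CXCL14 was 4.46-fold higher, but its level in the other cells was 38.3 at d14 against 10.7 in the myeloid cells. IL10, the anti-inflammatory cytokine, was 1.48-fold lower and CCL2, which attracts monocytes, 1.65-fold higher, neither past 2-fold.

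NF-kB and inflammasome genes had 5 of 19 compared members lower and 0 higher, with a median log2 fold of -0.49. NFKBIA, an inhibitor of NF-kB that NF-kB itself induces, was 4.66-fold lower (12.8 at d7 and 2.74 at d14), with 3.77-fold in cells with C1q and 3.38-fold in cells without. MEFV (pyrin), ICAM1, NFKBIZ and BIRC3 were 4.16-fold, 2.89-fold, 2.71-fold and 2.42-fold lower, while the subunits NFKB1, RELB and REL and the sensor NLRP3 were within 2-fold. Among genes of pattern recognition, 2 of 13 were lower and 0 higher. These were CLEC4E, a receptor of fungal and bacterial lipids, at 3.65-fold and TREM1, an amplifier of inflammation, at 3.05-fold, while TLR2 and TLR4 were within 2-fold.

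Immediate early genes switch on within minutes of a stimulus, and many also do so while tissue is taken apart. Together with heat shock genes they had 17 of 30 compared members lower at d14 and 0 higher, with a median log2 fold of -1.19. Their summed level was 194, 205, 504, 272 and 410 counts per 10000 in the myeloid cells, so it was highest at d7. In the other cells it was 200, 212, 193, 201 and 296 and thus slightly lower at d7 than at d14. FOSB, a subunit of the AP-1 factor, was at 6.95, 7.62, 9.31, 1.5 and 5.2 and was 6.21-fold (5.89 to 6.56) lower at d14 than at d7.

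FOSB was lower in both classes, 6.05-fold with C1q and 5.47-fold without, and 2.68-fold lower in the other cells. FOS was 2.81-fold, JUN 2.29-fold, EGR1 2.31-fold, ATF3 4.27-fold, DUSP1 2.71-fold, DUSP2 4.98-fold and IER3 7.05-fold lower. The heat shock genes HSPA8 and HSP90AA1 were 1.2-fold and 1.69-fold lower. Of the whole list, DNAJB1 was the only chaperone gene past 2-fold, at 2.23-fold. The part of dissociation in these values was not tested.

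Transcription factors of myeloid cells had 7 of 25 compared members lower and 0 higher. The largest of these differences was that of KLF4, a factor of monocyte differentiation that is also an immediate early gene. It was at 4.11, 2.54, 4.18, 0.682 and 1.57, 6.13-fold lower at d14, with 4.97-fold in cells with C1q and 5.01-fold in cells without. BHLHE40, NR4A3, KLF6, NR4A2, CEBPB and ID2 were between 2.06-fold and 3.1-fold lower. SPI1, the factor that specifies the myeloid lineage, was at 6.75 and 6.42 counts per 10000 at d7 and d14.

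**Figure D4:**
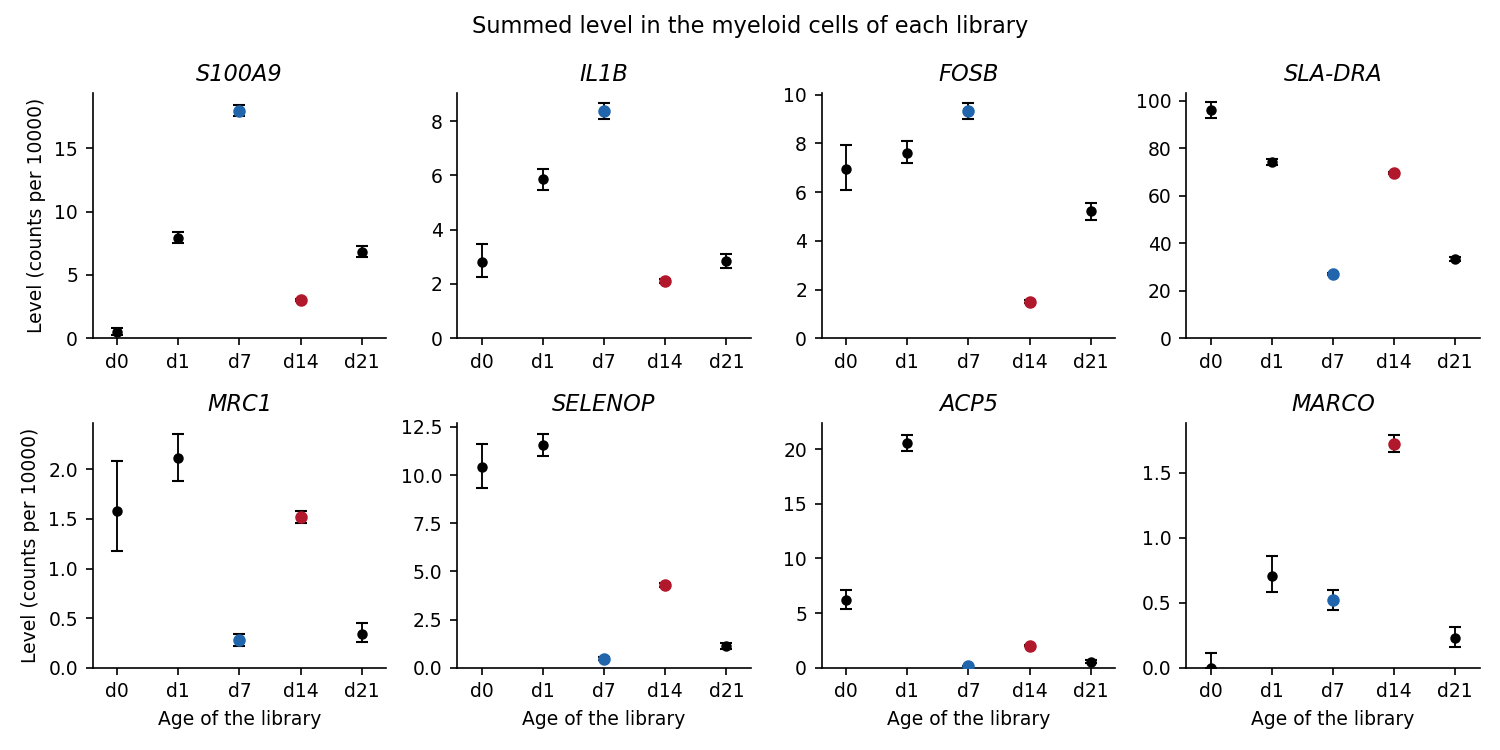
Summed level (counts per 10000) of 8 genes in the myeloid cells of each library, with exact Poisson 95% intervals and d7 in blue and d14 in red. S100A9, IL1B and FOSB are highest at d7, and SLA-DRA, MRC1, SELENOP and ACP5 are higher at d0, d1 and d14 than at d7 and d21.

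Genes of tissue macrophages were the counterpart, with 11 of 22 compared genes higher at d14 and 0 lower and a median log2 fold of 0.98. The list was also higher at d14 in the other cells, with a median log2 fold of 1.19. The other cells hold cells that fell short of the rule or were barred by it, and their part was not tested. Within the classes, 16 of 26 genes were higher in cells with at least 2 C1q UMIs and 8 of 21 in cells with none, with 1 lower in each. MRC1, the mannose receptor, was at 1.58, 2.11, 0.277, 1.52 and 0.345 counts per 10000 and was 5.48-fold (4.48 to 6.77) higher at d14 than at d7. SELENOP, a selenium carrier made by resident macrophages, was at 10.4, 11.6, 0.47, 4.27 and 1.12 and was 9.1-fold (7.81 to 10.7) higher. In the other cells MRC1 was 4.53-fold, MARCO 5.89-fold, DAB2 4.67-fold and SELENOP 1.86-fold higher at d14. Their levels there were lower than in the myeloid cells, except for SELENOP at d7, at 0.645 against 0.47. In the myeloid cells MRC1 and SELENOP stood at d14 below their d1 level and above those of d7 and d21.

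MRC1 was higher in both classes, 2.81-fold in cells with C1q and 3.7-fold in cells without, as was SELENOP with 5.11-fold and 5.38-fold. STAB1, a scavenger receptor, was 5.86-fold (4.02 to 8.89) higher, MARCO, a receptor for bacteria, 3.33-fold (2.87 to 3.89), AXL, a receptor for dying cells, 3.22-fold, DAB2, an adaptor of endocytosis, 3.16-fold, CX3CR1, the fractalkine receptor of gut macrophages, 2.25-fold and CD68 2.23-fold. MARCO was at 0 at d0 and 0.709, 0.517, 1.72 and 0.228 from d1 to d21, so d14 was its highest age. Of thinned cells, 1.66% at d7 (0.887 to 2.82) and 9.83% at d14 (8.63 to 11.13) had a UMI of MRC1, against 0.0590% and 0.467% of CD3 cells. Without thinning the shares were 4.83% and 26.9%. For SELENOP the thinned shares were 4.09% and 21.8% against 3.07% and 3.47% of CD3 cells, so at d7 it lay close to that background.

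Of the other members that passed, IGF1 (21.8-fold) and ADAMDEC1 (9.78-fold) were higher at d14 in the other cells than in the myeloid cells, at 1.27 and 17.3 counts per 10000, and so was C3 (2.61-fold, 1.41). CD163, the haemoglobin scavenger receptor, was 1.74-fold and MERTK 1.66-fold higher, both short of 2-fold. GPNMB was 1.45-fold higher, with 53.2% of its d7 count in 1 cell. SPP1 (osteopontin) was 1.45-fold lower, with 69.9% of its d14 count in 1 cell.

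Lysosomal genes had 9 of 26 compared members higher and 0 lower, and 25 of the 26 had a fold above 1, with a median log2 fold of 0.82. In the other cells the median was 0.73. Within the classes 6 of 26 were higher and 1 lower in cells with at least 2 C1q UMIs, and 1 of 24 was higher in cells with none. ACP5, the tartrate-resistant acid phosphatase, was at 6.23, 20.6, 0.134, 2.04 and 0.561 and was 15.2-fold (11.4 to 20.6) higher at d14. It differed between the classes, being 23.8-fold higher in cells with at least 2 C1q UMIs, with 12 counts at d7 and 2996 at d14, and 1.04-fold in cells with none. Its thinned shares of 1.15% and 6.88% lay below the 10.7% and 10.9% of CD3 cells. CD3 cells thus cannot serve as its background, and none is given for it. Its summed level lay below the 0.699 of the other cells at d7 and above their 0.786 at d14. GUSB was 3-fold, LIPA (lysosomal acid lipase) 2.39-fold, GRN (progranulin) 2.27-fold, HEXA 2.25-fold, CST3 (cystatin C) 2.24-fold, NPC2 2.12-fold, CTSD (cathepsin D) 2.05-fold and TPP1 2-fold higher. CTSL (cathepsin L) was the only member with a fold below 1, at 1.54-fold lower. Genes of lipid handling had 2 of 13 higher, APOE at 2.07-fold and the scavenger receptor MSR1 at 2.13-fold, and ACSL1 2.11-fold lower. Within the other cells, APOE was 13.1-fold higher at d14 than at d7.

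MHC class II presentation had 5 of 14 compared genes higher at d14 and 0 lower, with 13 of 14 folds above 1 and a median log2 fold of 0.95, beside 1.00 in the other cells. Past 2-fold were 0 of 14 in cells with at least 2 C1q UMIs and 4 of 14 in cells with none. SLA-DRA, the alpha chain of the porcine DR molecule, was at 96.0, 74.1, 27.0, 69.7 and 33.4 counts per 10000, 2.58-fold (2.53 to 2.63) higher at d14 than at d7. SLA-DQB1 and SLA-DQA1 were 2.61-fold and 2.35-fold higher, SLA-DOA 2.97-fold and CD74, the invariant chain, 2.1-fold. These genes were high at d0 and d1 as well, so d7 and d21 were the low ages. SLA-DRA lies on chromosome 7 of Sscrofa11.1 at 7:24825037-24830650, and SLA-DQA1, SLA-DQB1 and SLA-DOA follow at 7:24953472-24959313, 7:24969034-24977238 and 7:25178866-25182665.

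The class II difference was larger in cells without C1q, 2.5-fold for SLA-DRA and 2.35-fold for SLA-DQB1, than in cells with at least 2 C1q UMIs, where they were 1.42-fold and 1.4-fold. Of thinned cells, 42.1% at d7 (38.7 to 45.7) and 83.1% at d14 (81.5 to 84.6) had a UMI of SLA-DRA, and 12.7% and 21.7% of CD3 cells did. The unthinned shares were 51.2% and 91.1%. In the other cells SLA-DRA was at 7.39 and 21.1, a 2.86-fold difference, so it was higher at d14 among the cells the rule did not choose as well. With both C1q classes given equal weight in both libraries, SLA-DRA was 1.56-fold and SLA-DQB1 1.51-fold higher, short of 2-fold. CIITA, the factor that drives class II genes, was 1.36-fold and the co-stimulatory CD86 1.39-fold higher.

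Of the MHC class I presentation genes, 18 of 19 were within 2-fold, and NLRC5, a regulator of class I genes, was 2.86-fold lower. Interferon response genes had 3 of 28 lower (ISG20, OAS1 and IRF1, between 2.08-fold and 2.35-fold) and 0 higher. Their median log2 fold was -0.22 in all cells, 0.32 in cells with at least 2 C1q UMIs and -0.35 in cells with none. ISG15, a ubiquitin-like protein induced by interferon, was 1.44-fold higher in the first class and 2.05-fold lower in the second.

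Other lists had few genes past 2-fold. The genes of the phagocyte oxidase and antioxidants (14 compared), of nuclear-encoded oxidative phosphorylation (18) and of the cell cycle (11) had 0 past 2-fold in either direction. Glycolysis had 1 of 18 lower, ACOD1, which makes itaconate, at 2.8-fold. Iron and haem genes had 1 of 10 lower (FBXL5), cytokine receptors 1 of 18 lower (IL1R2, the decoy receptor of IL-1, 2.02-fold), Fc receptors and adaptors 1 of 14 higher (FCGR2B, the inhibitory receptor, 2.08-fold), and migration and adhesion 1 of 16 each way (CX3CR1 and CXCR2). Dendritic cell genes had 2 of 10 higher, CADM1 at 2.8-fold and FCER1A at 3.46-fold. Within the classes, 0 of 10 were higher and 1 lower in cells with at least 2 C1q UMIs. In cells with none, 0 of 9 were past 2-fold. FCER1A, also a mast cell gene, had 23 counts in 10 cells at d7. Tissue repair and matrix had 2 of 18 higher, FN1 and MMP14, and 3 lower, HBEGF (3.42-fold), THBD and PLAUR. The level of FN1 (fibronectin) in the other cells at d14 was 6.74 against 1.64 in the myeloid cells.

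**Figure D5:**
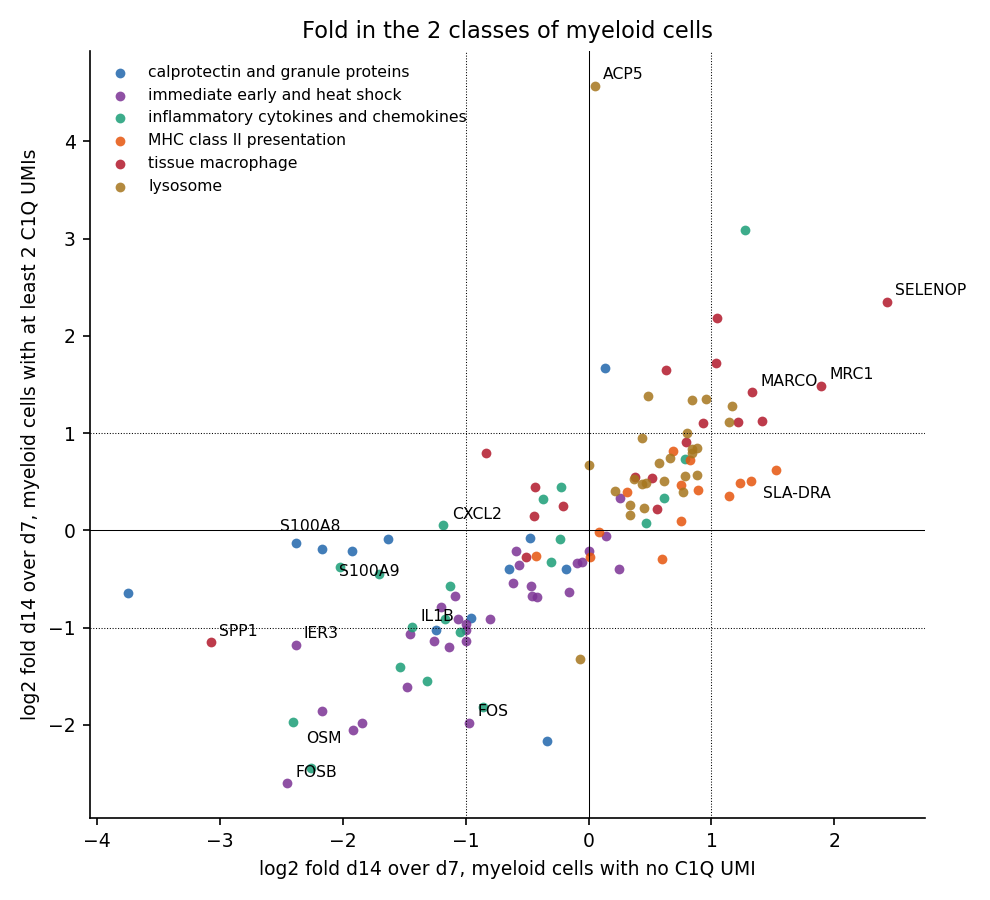
log2 fold of d14 over d7 for genes of 6 lists in myeloid cells with no C1q UMI (x axis) and with at least 2 (y axis), for genes with at least 10 counts in each class and library; dotted lines mark 2-fold. FOSB lies low on both axes and SELENOP high on both, while S100A8 and S100A9 are low on the x axis only and ACP5 is high on the y axis only.

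Cells with 2 or more UMIs of other cell types' markers were left out as a check, which kept 280 of 911 myeloid cells at d7 and 291 of 2356 at d14. A deeper cell reaches such a fixed cut more easily, and the medians before it were 2397 UMIs at d7 and 5922 at d14. The cut can thus change the depth and the mix of the cells too, and its effect on either was not tested. Among these cells S100A9, S100A8 and OSM had folds of d14 over d7 of 0.42, 0.273 and 0.299, against 0.169, 0.129 and 0.129 in all myeloid cells, and IL1B had a fold of 0.512 and S100A12 of 0.501, which are short of 2-fold lower. FOSB and KLF4 moved little, to 0.175 and 0.178. MRC1 was 10.9-fold, SELENOP 9.79-fold, STAB1 15-fold and ACP5 6.44-fold higher, while SLA-DRA was 1.85-fold and CD74 1.58-fold higher, short of 2-fold.

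Genes that were higher in the myeloid cells than in the other cells of the library in which they stood higher were also looked at. This choice was made after the values had been seen. A gene could pass through 1 library alone, and ACP5, SELENOP and JAML were below the other cells at d7, so the order is a description. It began with ACP5, LOC100624077 (10.2-fold), SELENOP, MRC1, LOC100153139 (5.17-fold) and PEPD, a dipeptidase (3.87-fold). They were followed by PLA2G7 (3.47-fold), a phospholipase that breaks down platelet-activating factor, JAML (3.37-fold), a junctional adhesion molecule of leukocytes, and MARCO. MS4A7 (3-fold) and MS4A4A (2.58-fold), both membrane proteins of macrophages, were further down this order.

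The genes given next for cells with at least 2 C1q UMIs were named after their values were seen. DNASE1L3, a secreted nuclease, had 0 counts at d7 and 1321 at d14 in this class. With the 0 set to the floor of 3 counts, it was 42-fold higher at d14, and the lower limit of the interval was 34.1. Over all myeloid cells it was at 6.29, 7.85, 0, 0.912 and 0.0986 across the ages. CXCL13, which attracts B cells, was 10.9-fold higher in this class (12 counts at d7 and 1367 at d14) and 2.03-fold higher in all cells, with 93% of its d7 count in 1 cell, which had no C1q UMI. VCAM1, an adhesion molecule, was 4.29-fold and F13A1, coagulation factor XIII, 3.29-fold higher in this class. Within cells without C1q, SPP1 and HCAR2, a receptor of niacin and ketone bodies, were 8.43-fold and 7.65-fold lower, with SPP1 found in 34 myeloid cells at d7, of which 5 held 80.5% of its count, and F13A1 was 2.05-fold higher.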

How the data were processed

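Counts of UMIs per gene and cell were used as the authors deposited them, 1 matrix of 20648 genes per library, without normalization. The submitters' processing notes name Cell Ranger 3.1.0, STAR and susScr11. The study names a forced number of cells for its Cell Ranger run that the matrices exceed, and its kit version differs from that of the labels. Sex and age come from the labels.

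Cells were picked by the rule given above, doublets were not removed, and counts were summed per library. Levels, folds and intervals (95%, exact Poisson, Clopper-Pearson and conditional) were computed with NumPy 2.4.6 and SciPy 1.17.1. The folds and their intervals were tried on counts simulated from the summed d7 profile. That simulation held no single cells, so it did not test the choice of cells or the spread between them. Named genes are those of 22 lists, the 15 largest rises and 15 largest falls at a level of at least 1, and the 10 highest genes, with exceptions marked. Members and lists were chosen with earlier results of these data known. Coordinates are those of RefSeq for Sscrofa11.1, matched by symbol. With 1 library per age no test was possible. Alternatives were other level minimums, added constants, denominators, weights, depths, cell limits and C1q classes.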

Additional observations from a re-analysis of the deposited data

Results flagged for a closer look

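For 3 genes, the myeloid cells and the other cells of the same libraries were past 2-fold in opposite directions. The difference was not tested, since each age is 1 library. TNFSF9, the ligand of the co-stimulatory receptor 4-1BB, stood at 3.54 counts per 10000 at d7 and 1.49 at d14 in the myeloid cells, a fold of d14 over d7 of 0.422, and at 0.828 and 1.78 in the other cells. NRG1, a growth factor of the EGF family, had a fold of 0.423 in the myeloid cells, from 2.02 to 0.854, and went from 0.221 to 0.66 in the other cells. In myeloid cells with at least 2 C1q UMIs NRG1 was 2.77-fold higher at d14, from 12 and 349 counts. LOC100524999 had a fold of 3.31 in the myeloid cells, from 2.15 to 7.1, and went from 11.6 to 2.61 in the other cells.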

How the results depend on the processing

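No paired analysis was possible because each age is 1 library. Against 239 higher and 229 lower genes, no level minimum gave 1705 and 2885, a minimum of 1 gave 62 and 110, adding 0.1 to both levels gave 148 higher, and adding 1 gave 27 and 41. Weighing every cell the same gave 467 and 379, and thinning to 1000 UMIs gave 612 higher, which were 65.0% of the genes past 2-fold against 51.1%. Leaving out cells with 2 or more UMIs of other cell types left 280 cells at d7 and 291 at d14 and gave 602 and 359, among them 115 of the 239 and 144 of the 229. Cells with at least 2 C1q UMIs gave 367 higher (70.4% of those past 2-fold), cells with none gave 154 higher, and equal weights of the C1q classes gave 152 lower. Of the alternatives chosen after seeing the data, thinned cells with no C1q UMI gave 503 and 374, and genes above the other cells in the library where they were higher, a limit that 1 library can pass, gave 105 higher. Centring folds on the median gave 200 and 276. The causes were not tested.

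Of 115 genes past 2-fold that were followed through the alternatives, 3 changed direction under 1 of the 19 alternatives in which they were compared. These were CXCL2, ISG20 and IL1R2, with folds of d14 over d7 of 1.04, 1.27 and 1.07 in cells with at least 2 C1q UMIs. NRG1, which was not among the 115, also changed direction there, to 2.77. Many folds kept their direction but moved outside their interval. Not all of the 115 were compared under every alternative. Without cells with 2 or more UMIs of other cell types, 87 moved and 19 stayed within their interval. With equal weights of the C1q classes 90 moved and 21 stayed. In each C1q class alone 78 moved, while 19 stayed in cells with at least 2 C1q UMIs and 31 in cells with none. Thinning to 1000 UMIs moved 67, equal cell weights 71 and adding 1 to both levels 114. Dropping the level minimum moved 0, and a minimum of 500 genes per cell moved 2. The share of myeloid cells at d14 over d7 moved from 1.64 to 1.81 with thinning, 1.48 with cells under 20% mitochondrial counts and 2.57 with at least 5 UMIs and 3 genes. The C1q genes alone could meet the last of these rules, as they could the main rule.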
